A study of Anser cygnoides with 12 samples.

Results

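The genes described here are 10 parts of the vertebrate circadian clock, taken by gene name from the 19836 genes measured in goose ileum: the activators CLOCK, NPAS2 and ARNTL, and the repressors PER2, PER3, CRY1, CRY2, NR1D2, BHLHE40 and NFIL3. All 10 names were found. The series holds 12 RNA-seq libraries of ileum from Yangzhou geese (Anser cygnoides), made from poly(A) RNA, with 4 libraries per diet and 3 diets. The lactulose diet held 21% crude protein with 0.3% lactulose, a sugar that gut enzymes do not digest and gut bacteria ferment. The high protein diet held 21% crude protein without lactulose, and the control diet was the basal diet with 18% crude protein. Libraries are named by diet and by the replicate number of the labels: lactulose 2, 3, 5 and 6, high protein 1, 3, 4 and 5, and control 3, 4, 6 and 7. The labels do not say whether the replicates were separate birds, and the p-values below therefore rest on a spread between libraries that may be technical. They give no sex, age, time of sampling or light schedule, so whether the hour of sampling differed between libraries was not tested.

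The clock is a feedback loop inside each cell. CLOCK, or its relative NPAS2, pairs with ARNTL (also called BMAL1), and the pair switches on the period genes (PER), the cryptochrome genes (CRY) and NR1D2. PER and CRY proteins then block the pair, NR1D2 represses ARNTL, and the cycle takes about a day. In the gut of mammals this clock runs locally, is set by feeding time as well as by light, and times digestion, absorption and cell division. ARNTL and its repressors peak at different times of day, so their levels at a single hour depend on phase as well as on amplitude.

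Total counts ran from 38706155 to 48251825 per library, and the 10 genes had 473 to 17190 counts each in every library. Ileum markers were present in all 12 libraries: FABP6, which binds bile acids in ileal cells, stood at 621 to 3490.5 FPKM, and CDX2, an intestinal transcription factor, at 59.6 to 132 FPKM. Tissue makeup varied widely. The summed FPKM of 17 enterocyte markers was 2037 to 8637 in lactulose libraries, 2097 to 8109.8 in high protein libraries and 2192 to 8038 in control libraries, and no marker was at 0 in all libraries of a diet. Levels are given as FPKM, counts per transcript length and library size, and tests and correlations rest on CPM, counts relative to library size, corrected by TMM, a scaling for differences in RNA composition that FPKM does not carry. Control 3 correlated least with the others (median r of log2 CPM 0.938, against 0.957 to 0.963) and had the lowest TMM scaling factor, 0.806 against 0.912 to 1.15. Lactulose 3 and 5 were the pair most alike, with r = 0.983, where every other library's closest partner reached 0.952 to 0.973. They were kept as 2 samples, and values are also given without them where they move a result.

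All 10 genes were expressed in goose ileum at moderate levels. CRY1 was highest with a mean of 27.9 FPKM over 12 libraries, followed by CRY2 at 26.7, NR1D2 at 26.0 and PER2 at 23.8 FPKM. Next came BHLHE40 at 12.3, NFIL3 at 11.4, CLOCK at 10.5 and ARNTL at 8.52 FPKM, with NPAS2 at 4.76 and PER3 at 2.53 FPKM last. The ranges over 12 libraries overlapped for every pair of neighbours in this order. FPKM is scaled to transcript length, so these levels can be set side by side between genes as far as their gene models are complete. The model of CRY2 is annotated as partial, so its place in this order is uncertain. The steadiest genes were ARNTL, whose highest library was 1.38 times its lowest, and CRY1, with a ratio of 1.58. On the TMM-scaled log2 CPM scale, CRY2 had a smaller SD over the 12 libraries than all but 7.71% of the tested genes and ARNTL than all but 8.70%. NPAS2 and BHLHE40 varied most in FPKM, with ratios of 4.51 and 4.03.

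**Figure D1:**
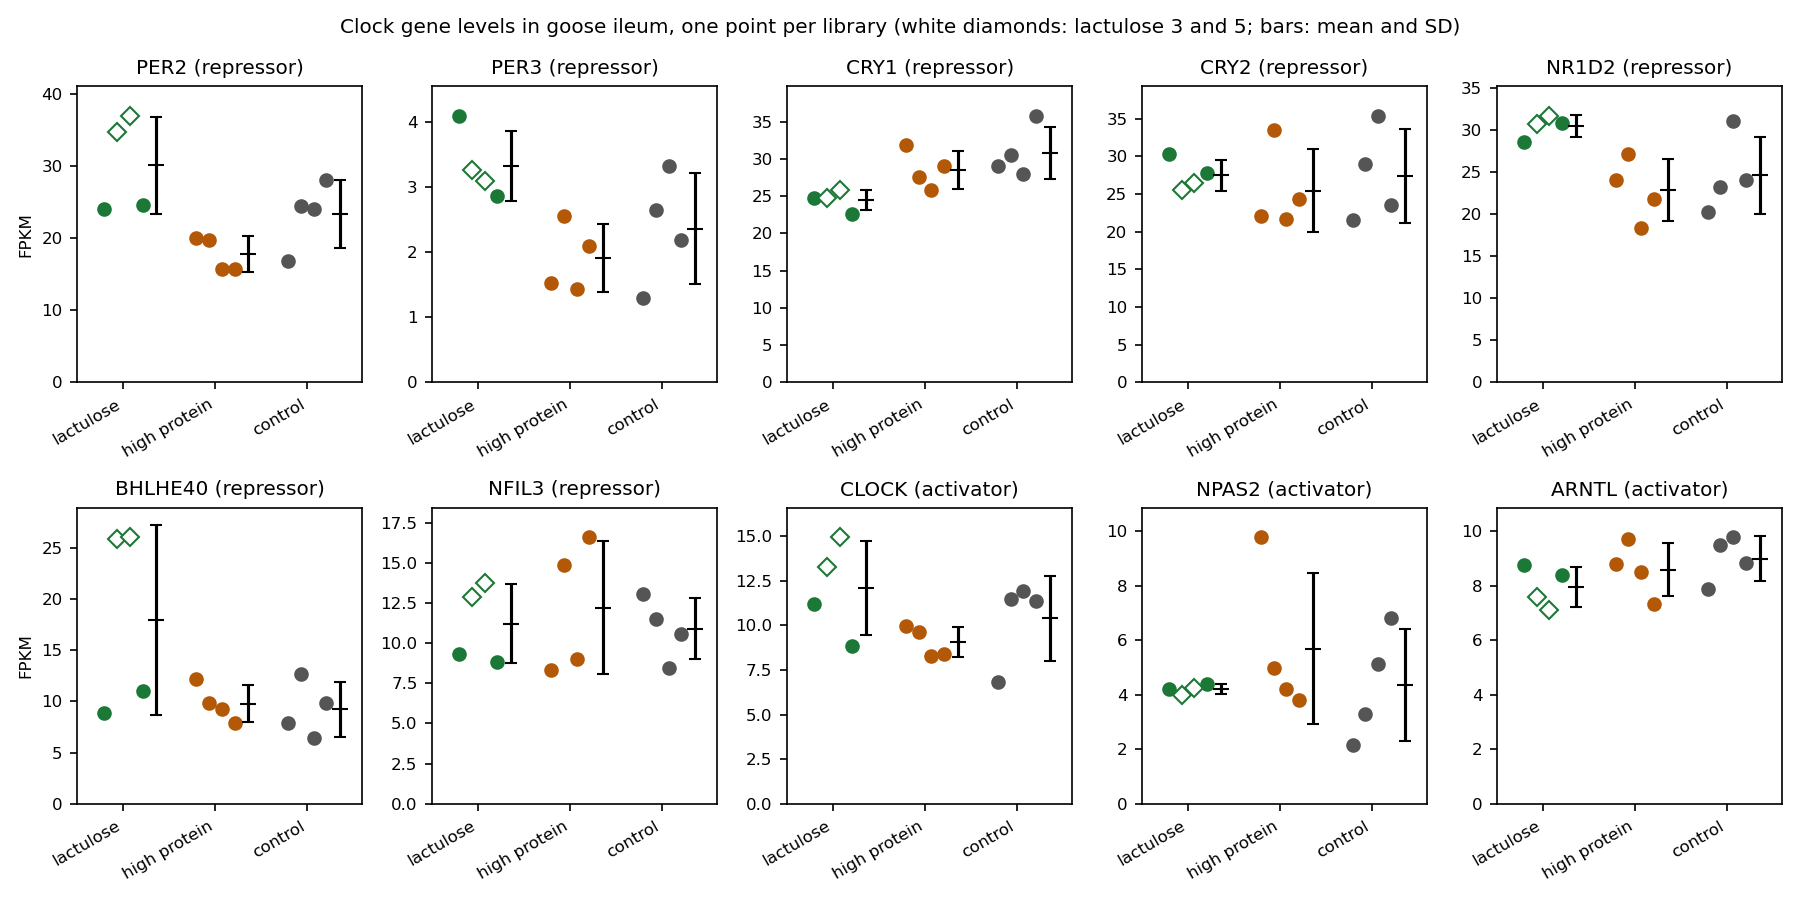
FPKM of the 10 clock genes in each ileum library, with lactulose left, high protein in the middle and control right. Each point is a library, white diamonds mark lactulose 3 and 5, and bars give the mean and SD of 4 libraries. All 4 lactulose libraries lie above all 4 high protein libraries for PER2, PER3 and NR1D2, and BHLHE40 stands apart only in lactulose 3 and 5.

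The period genes had their highest mean levels on the lactulose diet. PER2 (gene ID 106040317, scaffold NW_025927687.1, positions 1827353 to 1867409, minus strand) encodes a core repressor of the loop that also responds to acute signals. It stood at 24.1, 34.7, 37.0 and 24.6 FPKM in lactulose libraries, at 20.1, 19.8, 15.7 and 15.7 FPKM in high protein libraries, and at 16.8, 24.5, 24.1 and 28.0 FPKM in control libraries. Lactulose and high protein did not overlap, and lactulose 3 and 5 were the highest of all 12. The mean was 30.1 ± 6.74 FPKM on lactulose and 17.8 ± 2.45 FPKM on high protein (SD, n = 4 each). The fitted log2 fold change was 0.69 ± 0.196 (SE), with a 95% interval of 0.27 to 1.12. Its unadjusted p in edgeR's quasi-likelihood test was 0.00389, and its p adjusted over the 16075 genes tested was 0.845. When lactulose 3 and 5 were left out, the log2 fold change was 0.29, with an unadjusted edgeR p of 0.119. With them averaged into 1 sample it was 0.56, with an unadjusted edgeR p of 0.016.

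PER3 (gene ID 106047247, scaffold NW_025927702.1, positions 6834072 to 6858098, plus strand) is a period gene that in mice adjusts the clock without being needed to run it. It stood at 4.09, 3.25, 3.09 and 2.87 FPKM in lactulose libraries, at 1.53, 2.55, 1.44 and 2.10 FPKM in high protein libraries, and at 1.29, 2.64, 3.32 and 2.19 FPKM in control libraries. Every lactulose library was above every high protein library, while the control libraries spanned both. The means were 3.32 ± 0.536 FPKM on lactulose and 1.90 ± 0.519 FPKM on high protein (SD, n = 4 each), a fitted log2 fold change of 0.73 ± 0.198 (SE) with a 95% interval of 0.30 to 1.16. The edgeR p was 0.00306 unadjusted and 0.845 adjusted. Leaving out lactulose 3 and 5 moved this little: the log2 fold change was 0.70, with an unadjusted edgeR p of 0.0257. Tissue makeup differed between the libraries then left. Of 17 enterocyte markers 16 were lower on lactulose than on high protein, with a median log2 fold change of -0.80. All 9 smooth muscle markers were higher, with a median of 0.49. The part of this in the PER3 level was not tested. With all libraries, PER3 on lactulose against control differed by 0.43 ± 0.197 (SE), with an unadjusted edgeR p of 0.0482 and an adjusted p of 0.771.

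High protein against control ran the other way for both period genes without passing the test. The log2 fold change was -0.39 ± 0.195 (SE) for PER2 and -0.29 ± 0.197 for PER3, and the adjusted edgeR p was 1.0 for each. On TMM-scaled log2 CPM all 4 high protein libraries lay below all 4 control libraries for PER2, while their FPKM ranges overlapped; by log2 CPM 1.09% of all tested genes were lower in this way.

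The cryptochromes bind the CLOCK and ARNTL pair and block it. CRY1, unlike the period genes, had its lowest mean on the lactulose diet. It (gene ID 106035889, scaffold NW_025927662.1, positions 10735674 to 10773029, plus strand) stood at 24.7, 24.8, 25.8 and 22.6 FPKM in lactulose libraries, at 31.8, 27.5, 25.8 and 29.1 FPKM in high protein libraries, and at 29.0, 30.5, 27.9 and 35.8 FPKM in control libraries. All 4 lactulose libraries were below all 4 control libraries in FPKM, though the ranges overlapped on TMM-scaled log2 CPM. The mean was 24.5 ± 1.34 FPKM on lactulose and 30.8 ± 3.48 FPKM on control (SD, n = 4 each). The log2 fold change of lactulose over control was -0.44 ± 0.147 (SE), with a 95% interval of -0.76 to -0.12. The edgeR p was 0.0106 unadjusted and 0.771 adjusted. Leaving out lactulose 3 and 5 gave -0.57. Tissue makeup differed between the libraries then left. Of 17 enterocyte markers 0 were higher on lactulose than on control, with a median log2 fold change of -0.80. All 9 smooth muscle markers were higher, with a median of 0.92. The part of this in the CRY1 level was not tested.

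CRY2 (gene ID 106040792, scaffold NW_025927692.1, positions 2005129 to 2026251, minus strand) is annotated as a partial, low quality protein model, so its level rests on an incomplete gene model. It stood at 30.2, 25.5, 26.4 and 27.7 FPKM in lactulose libraries, at 22.1, 33.5, 21.7 and 24.3 FPKM in high protein libraries, and at 21.5, 29.0, 35.4 and 23.6 FPKM in control libraries. The 3 diets overlapped throughout. The 95% interval of the log2 difference was -0.24 to 0.31 for lactulose over high protein and -0.36 to 0.19 for lactulose over control.

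NR1D2 (gene ID 106030284, scaffold NW_025927746.1, positions 1039705 to 1060550, plus strand) encodes REV-ERB beta, a nuclear receptor that represses ARNTL. It stood at 28.6, 30.7, 31.7 and 30.9 FPKM in lactulose libraries, at 24.1, 27.1, 18.4 and 21.9 FPKM in high protein libraries, and at 20.2, 23.2, 31.1 and 24.1 FPKM in control libraries. The lactulose libraries lay within a narrow range above all high protein libraries, but the ranges overlapped on TMM-scaled log2 CPM. The means were 30.5 ± 1.33 FPKM on lactulose and 22.9 ± 3.70 FPKM on high protein (SD, n = 4 each). The log2 fold change was 0.34 ± 0.127 (SE), with an unadjusted edgeR p of 0.0192 and an adjusted p of 0.845. Leaving out lactulose 3 and 5 gave 0.23, with an unadjusted edgeR p of 0.194.

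BHLHE40 (gene ID 106036704, scaffold NW_025927664.1, positions 1742704 to 1747276, minus strand), also called DEC1, binds the same promoter elements as the CLOCK pair and represses them; it also responds to low oxygen and to cell stimulation. It stood at 8.90, 25.9, 26.0 and 11.0 FPKM in lactulose libraries, at 12.2, 9.80, 9.22 and 7.88 FPKM in high protein libraries, and at 7.87, 12.7, 6.45 and 9.82 FPKM in control libraries. Lactulose 3 and 5 were more than 2 times any other library, and lactulose 2 and 6 lay within the range of the other diets. The lactulose mean was 18.0 ± 9.26 FPKM, against 9.76 ± 1.79 FPKM on high protein and 9.21 ± 2.70 FPKM on control (SD, n = 4 each). The log2 fold change was 0.83 ± 0.369 (SE) over high protein and 0.89 ± 0.370 over control, with adjusted edgeR p of 0.845 and 0.771. The sign turned negative without lactulose 3 and 5, at -0.13 over high protein and -0.060 over control.

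NFIL3 (gene ID 106045105, scaffold NW_025927814.1, positions 512681 to 525677, plus strand), also called E4BP4, represses genes that carry the D-box, a promoter element of clock output genes. In mice it also links the clock to lipid uptake in the gut lining and to immune cell development. It stood at 9.34, 12.9, 13.7 and 8.85 FPKM in lactulose libraries, at 8.34, 14.9, 9.02 and 16.6 FPKM in high protein libraries, and at 13.1, 11.5, 8.46 and 10.6 FPKM in control libraries. The 3 diets overlapped throughout, and the 95% interval of the log2 difference was -0.79 to 0.42 for lactulose over high protein.

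The level of NFIL3 went with that of another gene within every diet. LOC125181434, annotated as BTF3, was chosen after its values were seen; in chicken BTF3 has copies on both sex chromosomes, Z and W, and NFIL3 lies on Z, of which males carry a pair and females a single copy. LOC125181434 stood at 67.2, 9.90, 1.11 and 88.6 FPKM in lactulose libraries, at 63.3, 1.50, 96.2 and 1.36 FPKM in high protein libraries, and at 0.171, 0.659, 77.6 and 68.1 FPKM in control libraries. NFIL3 was at 8.34 to 10.6 FPKM in the 6 libraries where LOC125181434 was at 63.3 to 96.2 FPKM. It was at 11.5 to 16.6 FPKM in the 6 libraries where LOC125181434 was at 0.171 to 9.90 FPKM. These ranges of NFIL3 did not overlap, and each diet held 2 libraries of either kind. How many of all genes part in this way between these 6 and 6 libraries was not counted, so the separation has no background share. Lactulose 3, at 9.90 FPKM of LOC125181434, was above the rest of the low libraries, at 0.171 to 1.50 FPKM. The labels give no sex, no test was made of this split, and its part in the NFIL3 level was not tested. Lactulose 3 and 5 both belong to the libraries with low LOC125181434.

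**Figure D2:**
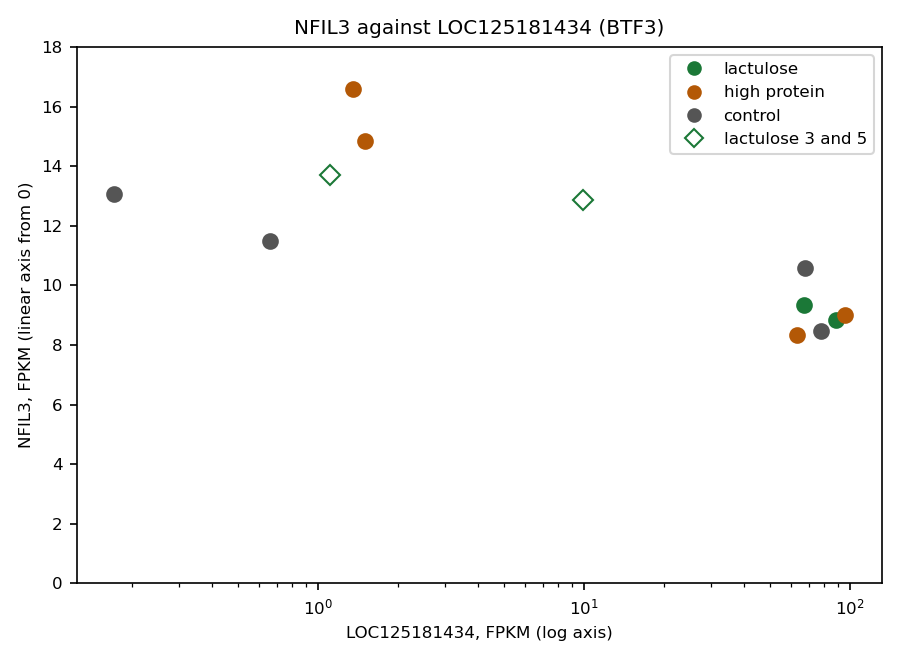
NFIL3 (vertical, FPKM) against LOC125181434 (horizontal, FPKM on a log axis), with each point a library coloured by diet and white diamonds for lactulose 3 and 5. The 6 libraries with 63.3 FPKM or more of LOC125181434 all have less NFIL3 than the 6 libraries with 9.90 FPKM or less. LOC125181434 was chosen after its values were seen, and the share of all genes that part in this way was not counted.

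Of the 3 activators, only ARNTL had an unadjusted edgeR p under 0.05, on lactulose against control. CLOCK (gene ID 106030790, scaffold NW_025927882.1, positions 23232 to 86512, plus strand) stood at 11.2, 13.3, 15.0 and 8.87 FPKM in lactulose libraries, at 9.98, 9.61, 8.26 and 8.41 FPKM in high protein libraries, and at 6.82, 11.5, 11.9 and 11.4 FPKM in control libraries. Lactulose 3 and 5 were again the highest, and lactulose 6 lay among the high protein libraries. The log2 fold change of lactulose over high protein was 0.34 ± 0.176 (SE), with an unadjusted edgeR p of 0.0755, and it was -0.024 without lactulose 3 and 5.

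NPAS2 (gene ID 106049075, scaffold NW_025927865.1, positions 151212 to 222583, plus strand), which can stand in for CLOCK, stood at 4.22, 3.99, 4.25 and 4.41 FPKM in lactulose libraries. It stood at 9.78, 4.99, 4.22 and 3.79 FPKM in high protein libraries and at 2.17, 3.30, 5.15 and 6.82 FPKM in control libraries. The lactulose libraries had an SD of 0.172 FPKM (n = 4), against an SD of 2.77 FPKM on high protein and 2.05 FPKM on control. High protein 1 was the highest of all 12. The log2 fold change of lactulose over high protein was -0.52 ± 0.321 (SE), with an unadjusted edgeR p of 0.127, and it was -0.11 without high protein 1.

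ARNTL (gene ID 106040868, scaffold NW_025927712.1, positions 187517 to 236249, minus strand), the partner that both CLOCK and NPAS2 need, stood at 8.75, 7.61, 7.11 and 8.40 FPKM in lactulose libraries. It stood at 8.82, 9.72, 8.51 and 7.35 FPKM in high protein libraries and at 7.89, 9.49, 9.79 and 8.84 FPKM in control libraries. The FPKM ranges overlapped, but on TMM-scaled log2 CPM all 4 lactulose libraries were below all 4 control libraries. The mean was 7.97 ± 0.744 FPKM on lactulose and 9.00 ± 0.840 FPKM on control (SD, n = 4 each), with a log2 fold change of -0.28 ± 0.109 (SE). The edgeR p was 0.0235 unadjusted and 0.771 adjusted. This value rested on the scaling: it was -0.19 without TMM scaling (unadjusted edgeR p 0.17) and -0.16 with limma on log2(FPKM + 1) (unadjusted p 0.232). It was -0.25 without lactulose 3 and 5 (unadjusted edgeR p 0.124).

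**Figure D3:**
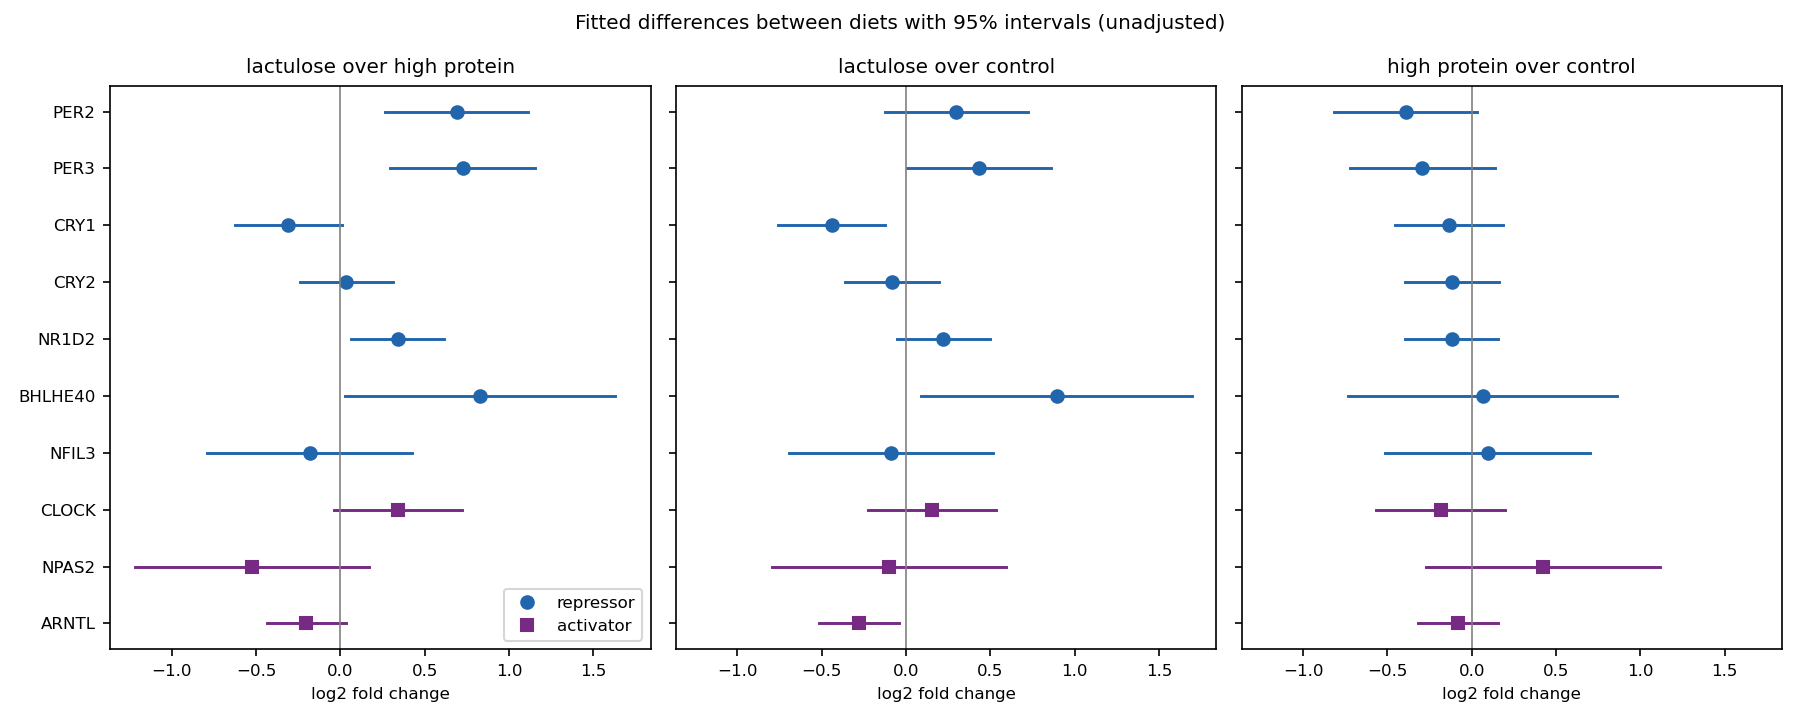
Fitted log2 fold change of each clock gene (point) with its unadjusted 95% interval (line), for lactulose over high protein, lactulose over control and high protein over control. Circles are repressors and squares activators. Intervals of PER2, PER3, NR1D2 and BHLHE40 lie above 0 for lactulose over high protein, and all 10 intervals include 0 for high protein over control.

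No clock gene passed the adjusted threshold of 0.05 in any comparison, and neither did any of the 16075 genes tested with edgeR, so the share called was 0% throughout. At an unadjusted p under 0.05, 4 of the 10 genes were higher on lactulose than on high protein and 0 were lower, where 2.31% of all tested genes were higher and 3.33% lower. The 4 became 5 without lactulose 2, without lactulose 6 and without TMM scaling, and 3 without control 3 (with 2 lower). They became 3 without lactulose 3, 2 without lactulose 5 (with 1 lower), 2 without high protein 4, 2 with lactulose 3 and 5 averaged and 2 with a replicate block. They were also 3 without control 7 and with limma on log2(FPKM + 1) or log2(FPKM + 0.1). Without high protein 3, without high protein 5 and with only these 2 diets fitted, 3 were higher and 1 lower. Without control 6, 4 were higher and 1 lower. Leaving out both lactulose 3 and 5 gave 1 higher, PER3, and 1 lower. For lactulose against control, 2 were higher and 2 lower, where 2.26% of all genes were higher and 3.94% lower. Here 0 were higher without any 1 of lactulose 3, lactulose 5, control 3 or control 7, with 1 or 2 lower. Without lactulose 2, 3 were higher and 2 lower. Fitting only these 2 diets, or averaging lactulose 3 and 5, gave 0 higher and 2 lower. Without any 1 of control 4, control 6 or high protein 5, 1 was higher and 2 lower. A replicate block gave 1 higher and 0 lower, and no TMM scaling gave 1 higher and 1 lower. Leaving out both lactulose 3 and 5 gave 0 higher and 1 lower. For high protein against control the count was 0 of 10, where 1.31% of all genes were higher and 1.86% lower. Leaving out each library in turn gave 0 or 1. In the test for any difference among the 3 diets, 4 of the 10 had an unadjusted edgeR p under 0.05 (PER3, PER2, CRY1 and BHLHE40), where 4.65% of all genes did, and the lowest adjusted p was 0.968. By DESeq2 the adjusted calls were 19 genes (0.122%) for lactulose against high protein, 22 (0.121%) for lactulose against control and 8 (0.0404%) for high protein against control, with 0 clock genes among them. The lowest adjusted p any clock gene reached under any alternative was 0.195, for PER2 on lactulose against high protein by DESeq2, where the other alternatives for that value reached up to 1.0. Without TMM scaling the unadjusted calls over all genes for lactulose against high protein turned to 622 higher and 293 lower, against 372 higher and 536 lower with it. Each diet's libraries served in 2 of these comparisons, so the comparisons share samples. Non-overlapping FPKM ranges were found for PER2, PER3 and NR1D2 on lactulose above high protein, and in 4.71% of all genes. On TMM-scaled log2 CPM they were found for PER2 and PER3, and in 2.43% of all genes. Lactulose lay below control without overlap for CRY1 in FPKM, as for 1.15% of all genes, and for ARNTL on log2 CPM, as for 2.12%.

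Set by role, the medians of the repressors and activators differed in sign on lactulose over high protein, though no gene of either role passed the test and CLOCK, an activator, had a positive value. Of the 7 repressors, 5 had a positive and 2 a negative log2 fold change, with a median of 0.34, and of the 3 activators 1 was positive and 2 were negative, with a median of -0.20. These medians were 0.035 and -0.17 when lactulose 3 and 5 were left out, and 0.38 and -0.11 without high protein 1. The median over all tested genes was 0.018. Over control the median on lactulose was 0.22 for repressors and -0.10 for activators, and on high protein it was -0.12 for repressors and -0.081 for activators. When lactulose 3 and 5 were left out, the lactulose medians over control were both negative, -0.081 for repressors and -0.21 for activators. Both were positive without control 7, at 0.19 and 0.19, and with limma on log2(FPKM + 1), at 0.31 and 0.044. For each library, the mean log2 CPM of the repressors minus that of the activators gives their distance. It was 1.04, 1.35, 1.33 and 1.10 in lactulose libraries, 0.44, 0.99, 0.75 and 1.12 in high protein libraries, and 1.27, 1.13, 0.81 and 0.74 in control libraries. The ranges of the 3 diets overlapped, with a mean of 1.20 ± 0.158 on lactulose, 0.825 ± 0.297 on high protein and 0.987 ± 0.256 on control (SD, n = 4 each). The lactulose mean was 0.38 above high protein, or 0.24 without lactulose 3 and 5 and 0.25 without high protein 1. It was 0.22 above control, or 0.081 without lactulose 3 and 5. The high protein mean minus the control mean was -0.16, or -0.035 without high protein 1 and -0.067 without control 3. No test was made of this score.

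Across the 12 libraries the clearest pair joined a repressor with an activator, in the same direction. PER2 and CLOCK had a Pearson r of 0.88 on log2 CPM (two-sided permutation p = 0.00037, adjusted 0.017 over the 45 pairs), the only pair under 0.05. Spearman's rho was 0.68 (permutation p = 0.019, adjusted 0.285). Pearson's r was 0.61 without lactulose 3 and 5, the libraries farthest from the median of PER2, and with them averaged it was 0.83 with an adjusted permutation p of 0.125. The correlation therefore passed the threshold only with both libraries counted. Within diets, each library minus its diet mean, r was 0.88 (adjusted permutation p = 0.289). BHLHE40 correlated with PER2 (r = 0.79) and with CLOCK (r = 0.74), which without lactulose 3 and 5 were 0.21 and 0.037. PER2 correlated with NR1D2 (r = 0.75, or 0.41 without them).

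PER3 and CRY1, both repressors, correlated negatively, with r = -0.74 and rho = -0.76 (adjusted permutation p = 0.0698 and 0.282). Without the 2 libraries farthest from the median of PER3, high protein 1 and 4, r was -0.82, while on log2(FPKM + 1), without TMM scaling, it was -0.45. PER3 and ARNTL had r = -0.71 on TMM-scaled log2 CPM (rho = -0.68, adjusted permutation p = 0.0882 and 0.285), but 0.10 on log2(FPKM + 1), so that this sign depended on the scaling. Of the 45 pairs, 12 changed sign between these scales. By kind, the 21 pairs of a repressor with an activator had a median r of -0.011, with 9 positive and 12 negative and a range of -0.71 to 0.88. The 21 pairs of repressors had a median of 0.072, with 14 positive, so neither kind of pair had a common sign.

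**Figure D4:**
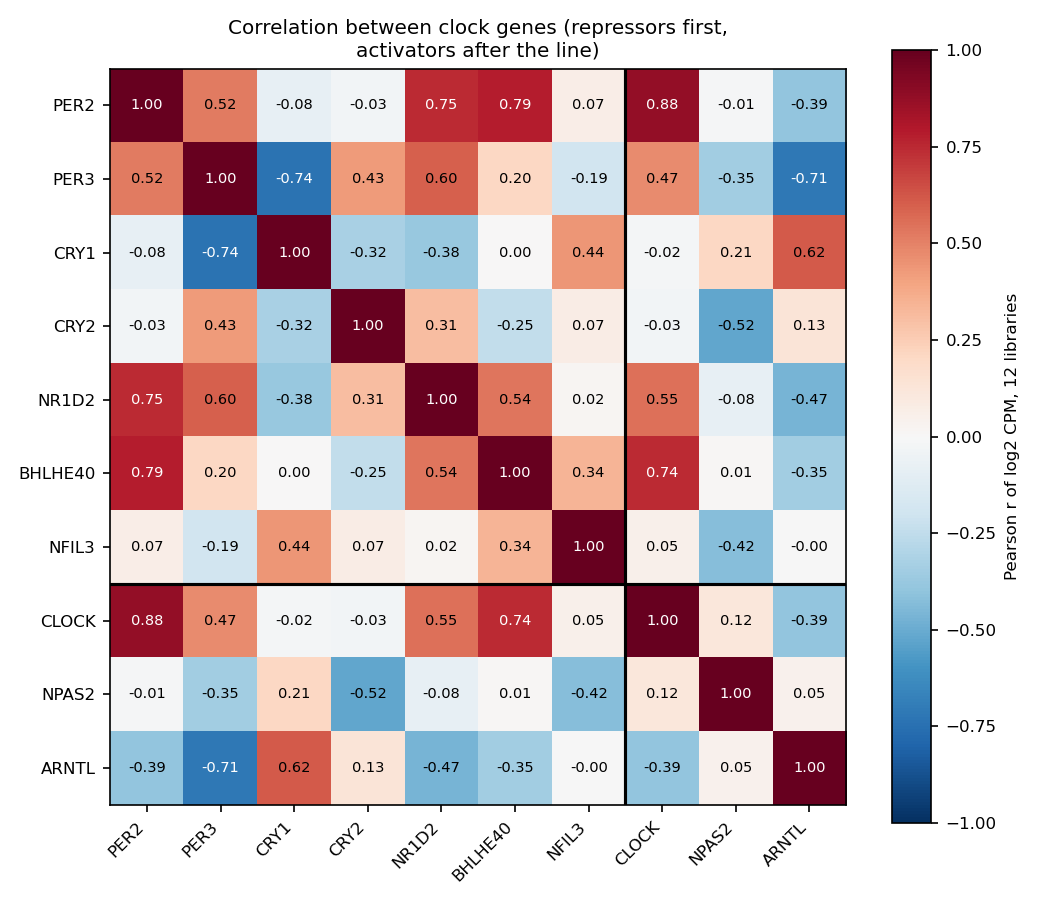
Pearson r of TMM-scaled log2 CPM over 12 libraries for each pair of clock genes, red positive and blue negative; black lines part the 7 repressors from the 3 activators. PER2 with CLOCK is the strongest pair at 0.88, and PER3 with CRY1 the most negative at -0.74.

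**Figure D5:**
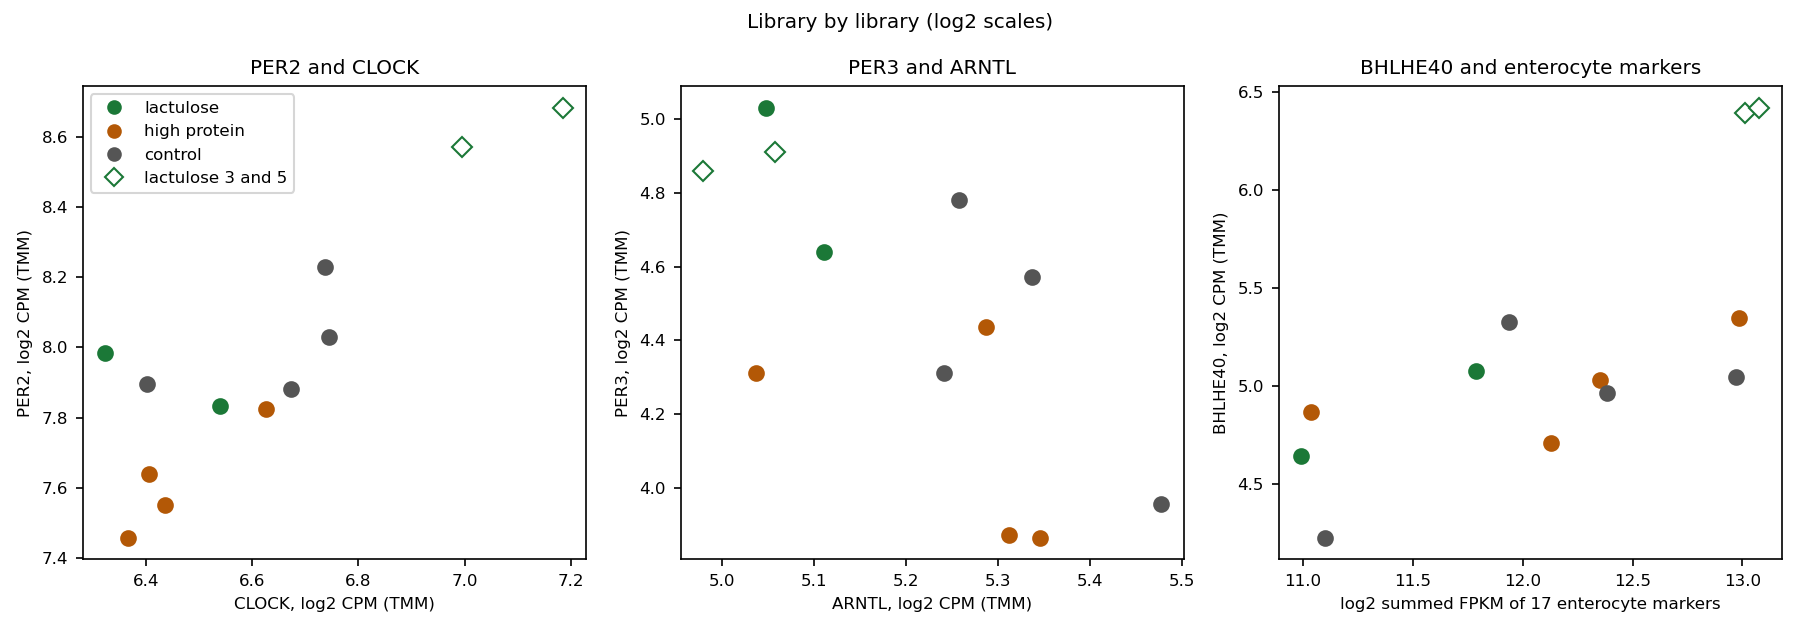
Library values on log2 scales: PER2 against CLOCK (left), PER3 against ARNTL (middle) and BHLHE40 against the summed FPKM of 17 enterocyte markers (right), with colours for diets and white diamonds for lactulose 3 and 5. Those libraries form the upper end of the PER2 and CLOCK plot, where r is 0.88 with them and 0.61 without.

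The wider clock network was read from 43 further genes of the loop, its regulators and its outputs, of which 36 were in the table and 34 were tested. Lactulose over high protein was positive for 26 and negative for 8 of the 34, and 0 had an unadjusted edgeR p under 0.05. When lactulose 3 and 5 were left out, 17 were positive and 17 negative. The FPKM ranges of 2 of the 34 did not overlap, close to the 4.71% of all genes that lay higher in this way. Both encode kinases that act on clock proteins and are named here after their values were seen. CSNK1E, casein kinase 1 epsilon, which marks PER proteins for breakdown, averaged 17.8 ± 1.87 FPKM on lactulose and 12.6 ± 2.28 FPKM on high protein (SD, n = 4 each), with an unadjusted edgeR p of 0.063, or 0.292 without lactulose 3 and 5. GSK3B averaged 8.95 ± 0.222 FPKM on lactulose and 8.09 ± 0.383 FPKM on high protein, and its ranges overlapped on TMM-scaled log2 CPM. Over the 34 genes, lactulose over control was positive for 20 and high protein over control for 13.

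Of the 14 clock outputs tested, 3 were higher and 1 lower at an unadjusted edgeR p under 0.05 on lactulose over control, where 2.26% of all genes were higher and 3.94% lower. On high protein over control 2 were higher, where 1.31% of all genes were, and on lactulose over high protein the count was 0. FKBP5, a cochaperone of the glucocorticoid receptor, averaged 6.42 ± 0.468 FPKM on lactulose and 3.38 ± 1.15 FPKM on control (SD, n = 4 each), without overlap, as in 2.06% of all genes, a log2 fold change of 0.87 ± 0.209 (SE) with an unadjusted edgeR p of 0.00116. On high protein it averaged 5.04 ± 1.53 FPKM, 0.59 ± 0.208 above control on the log2 scale (unadjusted edgeR p 0.0143). PDK4, which holds back glucose oxidation, averaged 75.9 ± 38.7 FPKM on high protein and 37.7 ± 8.59 FPKM on control, with an unadjusted edgeR p of 0.0112. Its high protein libraries stood at 46.2, 101, 39.7 and 117 FPKM and overlapped the control libraries, at 31.6 to 50.2 FPKM. Without high protein 5 the unadjusted edgeR p was 0.051. KLF10 averaged 28.1 ± 4.61 FPKM on lactulose and 18.6 ± 5.60 FPKM on control (unadjusted edgeR p 0.014), and KLF15 averaged 4.89 ± 0.899 FPKM on lactulose and 3.08 ± 0.790 FPKM on control (unadjusted edgeR p 0.0474); both are transcription factors with daily rhythms in mammals. Neither kept this p without lactulose 3 and 5: the log2 fold change over control was then 0.23 for KLF10 (unadjusted edgeR p 0.292), against 0.54 with them, and 0.30 for KLF15 (unadjusted edgeR p 0.395), against 0.60. NAMPT, the rate-limiting enzyme of NAD salvage and a target of the CLOCK pair in mammals, averaged 34.6 ± 4.38 FPKM on lactulose and 48.3 ± 16.3 FPKM on control. Its log2 fold change was -0.58 ± 0.221 (SE), with an unadjusted edgeR p of 0.0222. NAMPT stood at 36.6, 36.3, 37.2 and 28.0 FPKM in lactulose libraries and at 38.1, 39.6, 42.7 and 72.6 FPKM in control libraries. These did not overlap, as in 1.15% of all genes, but lactulose 6 and control 7 stood apart and widened the difference of the means. Without lactulose 3 and 5 the log2 fold change was -0.76 (unadjusted edgeR p 0.0206). None of these passed adjustment, with adjusted edgeR p of 0.771 for lactulose over control and 1.0 for high protein over control.

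The close relatives of the 10 genes were low to moderate in all diets. NR1D1, the other REV-ERB gene, averaged 3.58 FPKM on lactulose, 2.54 FPKM on high protein and 3.44 FPKM on control, well under NR1D2. RORA, which activates ARNTL at the elements that the REV-ERB genes repress, averaged 3.35 FPKM on lactulose, 3.02 FPKM on high protein and 3.27 FPKM on control. BHLHE41 averaged 3.43 FPKM on lactulose, 3.20 FPKM on high protein and 2.38 FPKM on control, and ARNTL2, a relative of ARNTL, averaged 6.20 FPKM on lactulose, 5.08 FPKM on high protein and 5.84 FPKM on control. Of the D-box activators that NFIL3 opposes, TEF averaged 29.4 FPKM on lactulose, 24.8 FPKM on high protein and 25.4 FPKM on control, and HLF averaged 5.79 FPKM on lactulose, 4.88 FPKM on high protein and 3.87 FPKM on control. None of these 6 genes had an unadjusted edgeR p under 0.05 in any comparison. PER1, CRY4, CIART, FBXL21, DBP and KLF9 were not analysed here.

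Immediate early genes respond within minutes to stimulation or handling, and PER genes can respond in the same way in mammals. Of 19 in the table, 18 had a positive log2 fold change for lactulose over high protein, with a median of 0.55, and 9 had an unadjusted edgeR p under 0.05, all higher, where 2.31% of all tested genes were. For lactulose over control 16 of 19 were positive with a median of 0.36, and for high protein over control 0 of 19 with a median of -0.29. Their summed FPKM was 429.7 to 642 in lactulose libraries, 330.1 to 343 in high protein libraries and 368 to 467 in control libraries. Among them BTG2 had the highest correlation with PER2 (r = 0.85), followed by NR4A1 and NR4A2 (0.84 each). They were 0.64, 0.61 and 0.60 when lactulose 3 and 5 were left out, and the libraries share diet and depth. These 3 were picked for their likeness to PER2. The sum of all 19 correlated with PER2 at r = 0.41 and rho = 0.66 (permutation p adjusted over 50 relations 0.439 and 0.259). That r was 0.86 without the 2 libraries farthest from the median of the sum, and 0.52 without lactulose 3 and 5. With PER3 the sum had r = 0.69 and rho = 0.71 (adjusted permutation p 0.243 and 0.193). This r was 0.69 without the 2 farthest libraries and 0.71 without lactulose 3 and 5. The list was divided within the lactulose diet. EGR1, the prototype of the class, stood at 64.4, 16.5, 10.3 and 87.9 FPKM in lactulose 2, 3, 5 and 6, lower in lactulose 3 and 5 than in lactulose 2 and 6. FOS, JUN, JUND, EGR2, EGR3, DUSP1 and KLF2 were lower there too. BTG2, NR4A1, NR4A2, ATF3, FOSL2, KLF4 and KLF6 were instead higher in lactulose 3 and 5, and the rest overlapped. The part of these signals in the PER2 and PER3 levels was not tested.

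Tissue makeup varied between libraries beside the clock genes. In pieces of ileum, fewer cells of a type and less RNA per cell cannot be told apart. Of 50 relations between the 10 genes and 5 lists (enterocyte, smooth muscle, leukocyte and enteric neuron markers, and immediate early genes), 0 had an adjusted permutation p under 0.05. These relations set TMM-scaled log2 CPM of a clock gene against log2 summed FPKM of a list, which carries no TMM correction. Values with both on the same scale are not given. The strongest over all 12 libraries was BHLHE40 with the summed enterocyte markers, with r = 0.73 and rho = 0.78 on log2 scales (permutation p = 0.00617 and 0.00452, adjusted 0.243 and 0.193). It was 0.74 without the 2 libraries farthest from the median of that sum and 0.65 without lactulose 3 and 5. Lactulose 3 and 5 had 8263 and 8637 summed FPKM of these markers and 25.9 and 26.0 FPKM of BHLHE40. High protein 1 and control 3 had 8109.8 and 8038 summed FPKM and 12.2 and 7.87 FPKM of BHLHE40. The BHLHE40 level of high protein 1 was the highest of its diet. CRY1 correlated negatively with the 9 smooth muscle markers, with r = -0.69 and rho = -0.65 (permutation p = 0.0146 and 0.0259, adjusted 0.243 and 0.259). This r was -0.41 without the 2 farthest libraries and -0.82 without lactulose 3 and 5. Leaving out lactulose 3 and 5 also gave PER3 r = -0.86 with enterocyte and 0.83 with enteric neuron markers. It gave -0.85 for ARNTL with smooth muscle, 0.82 for CRY1 with enterocyte and -0.85 for BHLHE40 with enteric neuron markers. Other relations shrank, as PER2 with enterocyte markers from 0.48 to 0.10. The values without lactulose 3 and 5 were picked by size and not tested. The smooth muscle markers summed to 2348 to 6824 FPKM in lactulose libraries, 2822 to 5171 in high protein libraries and 2196 to 4401 in control libraries. The 12 leukocyte markers summed to 2886 to 3762 FPKM in lactulose libraries, 3039 to 3956 in high protein libraries and 2285 to 4124 in control libraries. CD74, which is not confined to leukocytes, made up 86.0% of that sum; the other 11 markers summed to 338 to 497 FPKM in lactulose libraries, 499 to 673 in high protein libraries and 428 to 548 in control libraries. On lactulose over high protein 11 of the 12 had a negative log2 fold change, with a median of -0.42 (-0.37 without lactulose 3 and 5), and 6 were lower at an unadjusted edgeR p under 0.05, where 3.33% of all genes were. On lactulose over control 9 of the 12 were negative, with a median of -0.15, and on high protein over control 8 were positive, with a median of 0.14. The 9 enteric neuron markers summed to 29.9 to 67.0 FPKM in lactulose libraries, 23.6 to 43.5 in high protein libraries and 28.1 to 58.0 in control libraries. Lactulose over high protein was positive for 13 of 17 enterocyte markers (median log2 fold change 0.40) and 7 of 9 enteric neuron markers (0.50). Without lactulose 3 and 5, 16 enterocyte markers were negative (median -0.80) and 8 enteric neuron markers positive (0.78). Of the smooth muscle markers, 7 were positive on lactulose over high protein (0.13). All 9 were positive on lactulose over control (0.56) and on high protein over control (0.38). The part of all these markers in the levels of the clock genes was not tested.

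Among all other tested genes with a symbol, those whose log2 CPM over the 12 libraries was most like PER3 were MAPKBP1 (r = 0.94), ADD2 (0.89), DOK7 (0.88), DNAJC10 (0.88) and TTC21B (0.87). Most opposed to PER3 were RBM18 (-0.93), CPSF4 (-0.91), VTI1B (-0.90), AGK (-0.89) and YIPF5 (-0.89). For ARNTL the most alike were ATG16L1 (r = 0.95), CD40LG (0.90), ARIH2 (0.87), MAP2K5 (0.86) and MED7 (0.85), and the most opposed TMEM169 (-0.92), DAPK3 (-0.91), MYO18A (-0.88), PTPRK (-0.87) and MOXD1 (-0.86). The gene lists of PER3 and ARNTL had no name in common. These values describe likeness over libraries that share diet, depth and tissue makeup. The genes were picked as the extremes over all tested genes with a symbol, so the size of r is not a test. All these r rest on TMM-scaled log2 CPM, and values without TMM scaling are not given.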

How the data were processed

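Poly(A) RNA of goose ileum was made into strand-specific libraries and sequenced from both ends, per the labels' protocols. Without giving roles, the submitters' processing notes list edgeR, DESeq2, StringTie 2.1.6, HISAT2 2.2.1 and cutadapt 1.9. The build, the annotation and how strand was used are each not given in these sources, so overlapping and antisense genes are uncertain. The authors deposited a raw count for each gene and library, per the file headers. They also deposited FPKM, their scaling of the count to transcript length and library size. Columns of other samples numbered 0. Counts clustered at 4 (5063 times, against 1799 at 3), which may mean that a read pair is counted as about 4. This was not tested, and counting error may then exceed what the counts imply.

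The test was edgeR 4.0.16 (R 4.3.3), quasi-likelihood, two-sided, using TMM scaling, filterByExpr with a minimum count of 10, and all 12 libraries. Diet was the sole term, which left 9 residual degrees of freedom. P-values were adjusted by Benjamini-Hochberg over 16075 genes, with a threshold of 0.05. A standard error is the log2 fold change over the square root of F. Correlations used log2 CPM (prior count 2) and 100000 permutations (scipy 1.17.1). Those with gene lists set log2 CPM of a clock gene against log2 summed FPKM of the list. Alternatives included DESeq2 1.42.0, limma 3.58.1 on log2(FPKM + 1) and log2(FPKM + 0.1), and a replicate block. The code was tested on simulated data.

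The 10 genes and all gene lists were chosen with earlier results of these data known. Named beside them were listed clock genes with an unadjusted p under 0.05 in any comparison, 11 clock genes whatever their values (6 in the table), the 5 most and 5 least correlated genes with a symbol for PER3 and for ARNTL, and the 3 immediate early genes most correlated with PER2. Names missing from the table were matched by gene ID to a table of another goose assembly, which held 17685 of the 19836 IDs and gave names only.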

Additional observations from a re-analysis of the deposited data

Results flagged for a closer look

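Within each diet, the levels of the 10 clock genes and 13 further clock genes were searched for a library far from the other 3, in 69 groups of 4 libraries; chance flags about 1 group in 20. The groups flagged here were about as many as that. CLOCK stood at 6.82 FPKM in control 3, against 11.4 to 11.9 FPKM in the other control libraries. GSK3B stood at 4.72 FPKM in control 3. Control 3 also had the lowest TMM scaling factor, 0.806, which FPKM does not correct for; on TMM-scaled log2 CPM its CLOCK level was 6.40, against 6.67 to 6.75 in the other control libraries. NAMPT stood at 28.0 FPKM in lactulose 6, the lowest of its diet, and at 72.6 FPKM in control 7, the highest of its diet.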

How the results depend on the processing

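The 30 log2 fold changes of the 10 genes were recomputed under 23 alternatives, and 0 passed the adjusted threshold in any. Of the 690 values 663 kept their direction; those that did not belong to 12 of the 30 results, and the cause was not tested. Leaving out lactulose 3 and 5 together, an alternative chosen after seeing the data, gave -0.13 for BHLHE40 and -0.024 for CLOCK on lactulose over high protein, and -0.10 for PER2, -0.060 for BHLHE40 and -0.21 for CLOCK over control. Lactulose over control turned positive for CRY2 (0.028 and 0.029), NFIL3 (0.028 and 0.030) and NPAS2 (0.044 and 0.077) with limma at either pseudocount, and for NFIL3 (0.016) without TMM scaling. Without TMM scaling the median of all genes for lactulose over high protein was 0.11, against 0.018. With limma on log2(FPKM + 0.1) that for lactulose over control was 0.10, against 0.00044. Leaving out each library in turn gave ranges that crossed 0: over control on lactulose, -0.0035 to 0.29 for CLOCK, -0.24 to 0.15 for NFIL3 and -0.27 to 0.19 for NPAS2; over high protein on lactulose, -0.016 to 0.14 for CRY2 and -0.33 to 0.013 for NFIL3; and over control on high protein, -0.10 to 0.23 for BHLHE40 and -0.10 to 0.34 for NFIL3.

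Over all genes edgeR called 0 in each comparison. For high protein over control and for lactulose over control it was 1 without TMM scaling, 1 without the filter and 1 with limma at either pseudocount, and 8 and 22 with DESeq2. For lactulose over high protein DESeq2 called 19. Leaving out each library gave 0 to 1 in every comparison. Member pairs correlated under 0.05 numbered 1, but 5 on log2(FPKM + 1), 0 within diets, 0 with lactulose 3 and 5 averaged, 0 without both, and 0 to 3 leaving out each library.

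The labels do not say that replicate numbers mark a bird or batch, and each comparison shares 2 numbers. Same-numbered libraries had deviations that correlated at -0.133 to 0.196, and other pairs at -0.396 to 0.472. With a replicate block 0 clock genes and 0 genes in all passed, and signs turned for CRY2 (-0.072) on lactulose over high protein, BHLHE40 (-0.36) and NFIL3 (-0.11) on high protein over control, and NPAS2 (0.28) on lactulose over control. The block leaves fewer residual degrees of freedom than the 9 of the main fit, so a count of 0 says little. Lactulose and high protein share the numbers 3 and 5, so that comparison leans on lactulose 3 and 5. There BHLHE40 had an unadjusted edgeR p of 0.000146. The 10 genes had 473 to 17190 counts in each library.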

Other observations

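The table also held 2 genes of the cryptochrome and photolyase family without a symbol, looked up after the values were seen. LOC106046187, annotated as cryptochrome-1-like, stood at 0.165 to 0.739 FPKM in lactulose libraries, 0.118 to 0.628 FPKM in high protein libraries and 0.250 to 0.466 FPKM in control libraries, far under CRY1. LOC106036846, annotated as cryptochrome DASH-like, stood at 1.52 to 1.72 FPKM in lactulose libraries, 1.12 to 1.67 FPKM in high protein libraries and 1.31 to 1.64 FPKM in control libraries. The 3 diets overlapped for both.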
